A study of Mus musculus with 3 samples.

Results

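Reactive gliosis was followed in Müller glia (MG) through 8 genes, *Gfap*, *Vim*, *Nes*, *Lcn2*, *Serpina3n*, *Cp*, *Timp1* and *Prss56*, taken by symbol from the 32287 features of the deposited count matrices. All 8 were found. They were measured by droplet single-cell RNA sequencing of tdTomato+ cells sorted from mouse retinas, with 1 library for each of 3 groups. All mice carried Glast-CreERT2 and R26-CAG-LSL-Tdt, so that tamoxifen, given at 75 mg/kg on 5 days from P20 per the labels, marked cells in which the Glast promoter drove Cre. Control eyes received AAV7m8-GFAP-GFP-LacZsh at P28. CCA (cell cycle activator) eyes received AAV7m8-GFAP-cyclin D1-p27sh, built to raise cyclin D1 and lower p27, mixed 9:1 with the control virus on the same day. CCANT eyes received the CCA mixture and then NMDA, an excitotoxin, at P35 and TSA (trichostatin A, a histone deacetylase inhibitor) at P37. All retinas were taken at P51, 2 to 4 retinas of a group were pooled, retinas with good GFP expression were chosen, and every vector was driven by a *GFAP* promoter. The study's methods differ from the labels on the tamoxifen dose and start, the day of harvest and the name of the control shRNA, and the labels were followed here.

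MG span the retina and take up glutamate, buffer potassium and support neurons. When the retina is stressed or injured they become reactive: intermediate filament proteins such as GFAP and vimentin accumulate, and secreted proteins of the acute-phase and protease-inhibitor families are made. *Gfap* is low in resting MG and high in retinal astrocytes, which lie at the inner surface of the retina, while *Vim* and *Cp* are made by resting MG as well. Of the 8 genes, *Gfap*, *Vim* and *Nes* encode intermediate filament proteins. *Lcn2* encodes lipocalin 2, a secreted carrier of iron-binding siderophores, and *Cp* encodes ceruloplasmin, a copper-carrying ferroxidase. *Serpina3n* encodes a secreted serine protease inhibitor, *Timp1* an inhibitor of matrix metalloproteinases, and *Prss56* a serine protease of MG that is known for its role in the growth of the eye.

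In GRCm38 the genes lie on chromosome 11 (102887336 to 102900912, minus strand, *Gfap*), chromosome 2 (13573927 to 13582826, plus strand, *Vim*, and 32384633 to 32388252, minus strand, *Lcn2*), chromosome 3 (87971078 to 87980451, *Nes*, and 19957054 to 20009145, *Cp*, both plus strand), chromosome 12 (104406729 to 104414329, plus strand, *Serpina3n*), chromosome X (20870166 to 20874735, plus strand, *Timp1*) and chromosome 1 (87183313 to 87188405, plus strand, *Prss56*). *Gfap* overlaps *Gm26668*, *Cp* overlaps *Hps3* and *Timp1* overlaps *Syn1*, each on the opposite strand. The libraries were of the 10x Genomics 3′ kind, which keeps the strand of the RNA, and Cell Ranger, the counting program, takes sense reads by default, while the strand setting itself is not given in the sources used here. *Serpina3n* belongs to a family of similar neighbouring genes with which it can share reads, so its count is uncertain.

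The promoters of the 3 genes that were higher in both treated libraries, and of the 1 gene with a STAT motif, are shown because the JAK-STAT pathway is a known inducer of gliosis genes. Each is the 250 bases before the start annotated in RefSeq (GRCm38.p6), 5′ to 3′ on the gene's strand, with the motif in capitals. The spans above are from GENCODE. For *Gfap* the RefSeq start differs from the end of that span, so its window lies inside the span.
Gfap (chr11:102897201-102897450, minus strand): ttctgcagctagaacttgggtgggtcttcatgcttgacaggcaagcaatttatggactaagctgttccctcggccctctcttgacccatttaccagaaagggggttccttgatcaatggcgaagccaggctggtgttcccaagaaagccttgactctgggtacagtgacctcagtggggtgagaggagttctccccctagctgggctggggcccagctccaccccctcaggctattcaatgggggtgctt
Serpina3n (chr12:104406458-104406707, plus strand): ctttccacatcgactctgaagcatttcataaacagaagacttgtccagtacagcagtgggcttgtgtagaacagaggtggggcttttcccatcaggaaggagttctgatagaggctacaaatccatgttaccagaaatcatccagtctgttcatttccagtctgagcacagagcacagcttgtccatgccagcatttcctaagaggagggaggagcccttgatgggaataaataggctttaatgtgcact
Timp1 (chrX:20869916-20870165, plus strand): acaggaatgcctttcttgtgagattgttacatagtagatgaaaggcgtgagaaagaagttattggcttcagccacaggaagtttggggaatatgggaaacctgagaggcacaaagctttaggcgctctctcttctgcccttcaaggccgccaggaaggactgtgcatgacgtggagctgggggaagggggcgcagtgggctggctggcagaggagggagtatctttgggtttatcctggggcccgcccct
Prss56 (chr1:87183064-87183313, plus strand): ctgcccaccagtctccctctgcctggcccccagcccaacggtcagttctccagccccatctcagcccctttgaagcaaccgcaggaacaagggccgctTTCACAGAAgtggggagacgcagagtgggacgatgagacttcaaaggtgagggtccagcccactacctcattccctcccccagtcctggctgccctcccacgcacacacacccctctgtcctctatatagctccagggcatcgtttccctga
The STAT motif TTCNNNGAA, searched on both strands, was in 7.01% of 32817 promoter windows of this length, and among the 8 genes in that of *Prss56*, at 152 to 144 bases before the start. The AP-1 motif TGANTCA was in 6.75% of all windows and in that of *Cp*, at 177 to 171 bases before the start. The interferon motif core GAAANNGAA was in 7.12% of all windows and in none of the members' windows. A match is a description of letters, and the absence of one says nothing about a factor beyond these 250 bases.

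The cells of the study's joint count table were used: 3758 control, 3890 CCA and 3278 CCANT cells, with medians of 24235.5, 20710.5 and 20721.5 UMIs per cell. *Mki67*, a marker of dividing cells, reached 0.985 CPM (UMIs per 1000000 UMIs) in control cells against 51.1 in CCA and 18.5 in CCANT cells, and *Top2a*, a topoisomerase of dividing cells, 1.38, 80.1 and 32.5 CPM. *Cdkn1b*, the gene of p27, was at 225.9, 84.4 and 105.7 CPM in that order, and the reporter tdTomato at 88.9, 138.4 and 97.2 CPM. The 9 MG markers summed to 16324, 14299 and 13377 CPM. All 9 had UMIs in each library, as nearly all markers of other cell types did. The libraries also differed in sex-linked RNA. By the cell-wise rule, 3505 control cells were of Y-linked and 0 of *Xist* RNA, 3859 CCA cells were of *Xist* and 0 of Y-linked RNA, and the CCANT library was mixed, with 1183 Y-linked and 1718 *Xist* cells. Between control and CCA, sex and treatment therefore cannot be told apart, and CCANT was also compared with each of the others within 1 sex. Summed rod markers differed in the same order, at 288.5, 808 and 1434 CPM (8 of 8 markers present in each). A list of 14 immediate-early and dissociation genes summed to 3682, 6751 and 6610 CPM. Their part in the differences below was not tested. With 1 library per group no test between groups was possible. Intervals are exact 95% Poisson or binomial (Clopper-Pearson) intervals, cover nothing but counting error, not the spread between mice. A gene is called past 1.5-fold where its ratio exceeds that size with the interval on 1 side of 0 (log2), among genes with at least 50 UMIs over the groups compared.

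*Gfap*, *Serpina3n* and *Timp1* were higher in both treated libraries than in the control, *Prss56* was lower in both, and *Vim*, *Nes* and *Cp* stayed within 1.5-fold. Among the filament genes, *Gfap* stood at 22.9 CPM (21.9 to 23.8) in control cells, against 75.9 (74.1 to 77.8) in CCA and 101.2 (98.9 to 103.5) in CCANT cells. The 3 intervals do not overlap, though they cover counting error only. The log2 ratios over the control were 1.73 (1.66 to 1.80) for CCA and 2.15 (2.08 to 2.22) for CCANT, a 3.32-fold and a 4.43-fold difference. *Vim* was at 604, 818.2 and 699 CPM, highest in the CCA library, with log2 ratios over the control of 0.44 and 0.21. *Nes*, which encodes nestin, a filament protein of progenitor cells, was at 22.1, 22.99 and 20.5 CPM, and the interval of its CCA over control log2 ratio of 0.06 (-0.03 to 0.15) includes 0.

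The genes of secreted proteins went separate ways. *Serpina3n* was at 12.1, 25.5 and 34.9 CPM in the control, CCA and CCANT libraries, with log2 ratios over the control of 1.08 (0.98 to 1.19) and 1.53 (1.43 to 1.64). *Timp1* was at 8.89, 16.8 and 29.0 CPM, and its log2 ratios over the control were 0.92 (0.79 to 1.04) for CCA and 1.71 (1.59 to 1.82) for CCANT. For both genes the order of the libraries was that of *Gfap*. *Lcn2* was highest in the control, at 130.5 CPM against 62.4 in CCA and 91.5 in CCANT. The log2 ratios over the control were -1.06 (-1.11 to -1.02) for CCA and -0.51 (-0.56 to -0.47) for CCANT. Without the 1% of cells with most *Lcn2* in each library, its level was highest in CCANT, at 54.2 CPM against 31.3 in the control and 25.9 in CCA. *Cp* was nearly level, at 1659, 1651 and 1632 CPM, with log2 ratios of -0.01 and -0.02. *Prss56* showed the greatest difference of the 8 between CCA and control, at 448.5 CPM in the control, 83.7 in CCA and 213.4 in CCANT. Its log2 ratios over the control were -2.42 (-2.46 to -2.39) and -1.07 (-1.10 to -1.04).

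**Figure D1:**
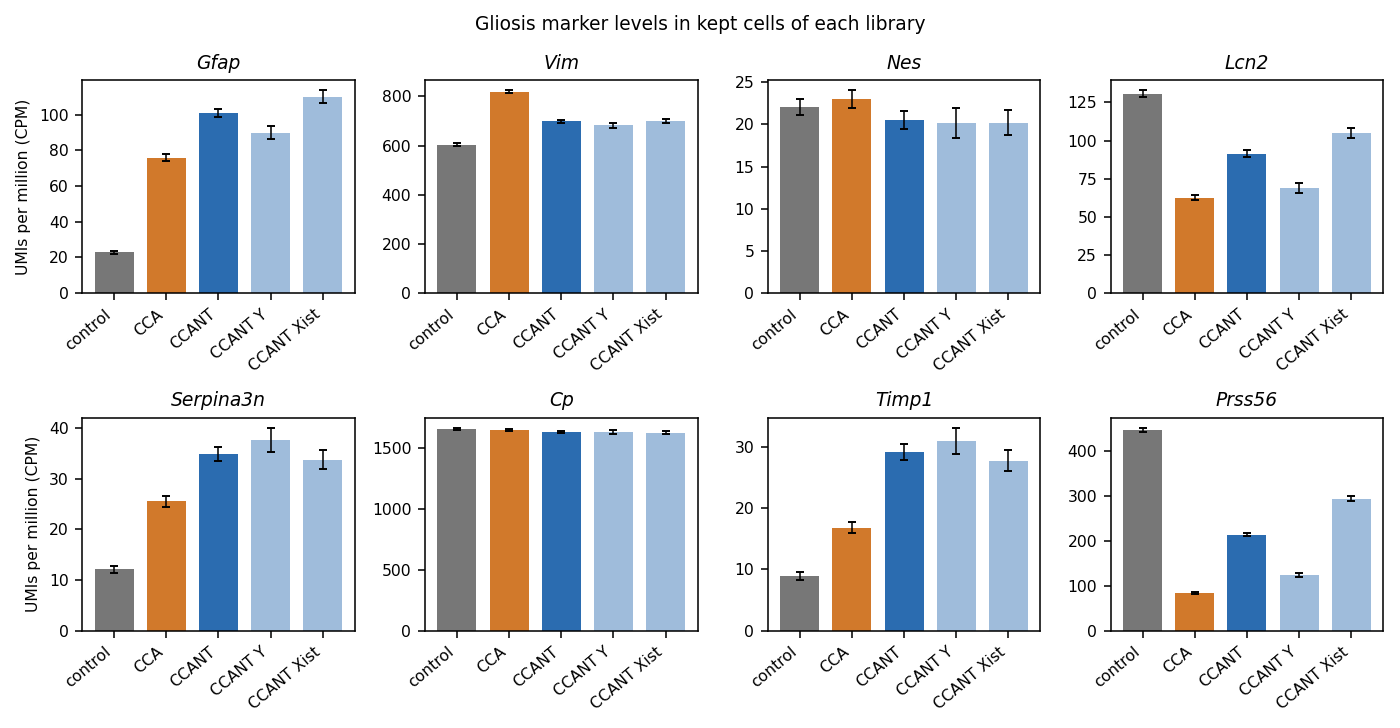
Bars give the level of each gene (CPM, linear axis from 0, a separate scale for each gene) in the kept cells of the control, CCA and CCANT libraries, and in the CCANT cells split by Y-linked or *Xist* RNA; error bars are exact 95% Poisson intervals. *Gfap*, *Serpina3n* and *Timp1* are lowest in the control and highest in CCANT of the 3 libraries, *Prss56* is at 448.5 CPM in the control and 83.7 CPM in CCA, and *Cp* stays between 1632 and 1659 CPM in the 3 libraries.

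Counted over the 8 genes, 3 were higher and 2 lower by 1.5-fold in CCA than in the control, where 11.4% of 17630 genes were higher and 2.92% lower. In CCANT over control, 3 were higher and 1 lower (10.6% and 5.51% of 17380 genes). In CCANT over CCA, 2 were higher and 0 lower (2.81% and 5.51% of 17397 genes). These were *Timp1*, with a log2 ratio of 0.79 (0.69 to 0.89), and *Prss56*, with 1.35 (1.31 to 1.39). *Gfap* (0.41), *Serpina3n* (0.45) and *Lcn2* (0.55) were also higher in CCANT than in CCA, short of 1.5-fold. *Lcn2* passed it without cycling cells (0.78) and without the 1% of cells with most *Lcn2* (1.06). The median log2 ratio of all genes lay between -0.05 and 0.07 in every comparison, and that of the 8 genes was 0.25 in CCA over control, 0.09 in CCANT over control and 0.43 in CCANT over CCA.

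Within cells of Y-linked RNA, CCANT was again higher than the control for *Gfap* (90.0 against 22.8 CPM, log2 ratio 1.98), *Serpina3n* (37.6 against 11.96, 1.65) and *Timp1* (30.8 against 8.60, 1.84). *Lcn2* (68.7 against 130.9 CPM, -0.93) and *Prss56* (124.8 against 441.4, -1.82) were lower. That made 3 higher and 2 lower of 8, where 10.5% of 16624 genes were higher and 5.57% lower. The *Lcn2* call rested on few cells, and its direction reversed without the 1% of cells with most *Lcn2*. Within cells of *Xist* RNA, CCANT was higher than CCA by 1.5-fold for *Prss56* (294.8 against 83.8 CPM, 1.81), *Lcn2* (104.7 against 62.6, 0.74) and *Timp1* (27.7 against 16.8, 0.72). *Gfap* was at 110.2 against 75.9 CPM, a log2 ratio of 0.54, and none of the 8 was lower by 1.5-fold (2.40% of 16924 genes higher, 6.22% lower). Inside the CCANT library itself, *Prss56* was at 124.8 CPM in Y-linked and 294.8 CPM in *Xist* cells, a log2 ratio of -1.24 (-1.30 to -1.18). *Lcn2* was at 68.7 and 104.7 CPM (-0.61), and the other 6 genes stayed within 1.5-fold, as did most genes (2.28% of 15504 higher and 1.04% lower). The number of mice behind the Y-linked and the *Xist* cells is not known, so sex and mouse cannot be told apart. The plot of ratios sets these comparisons side by side.

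**Figure D2:**
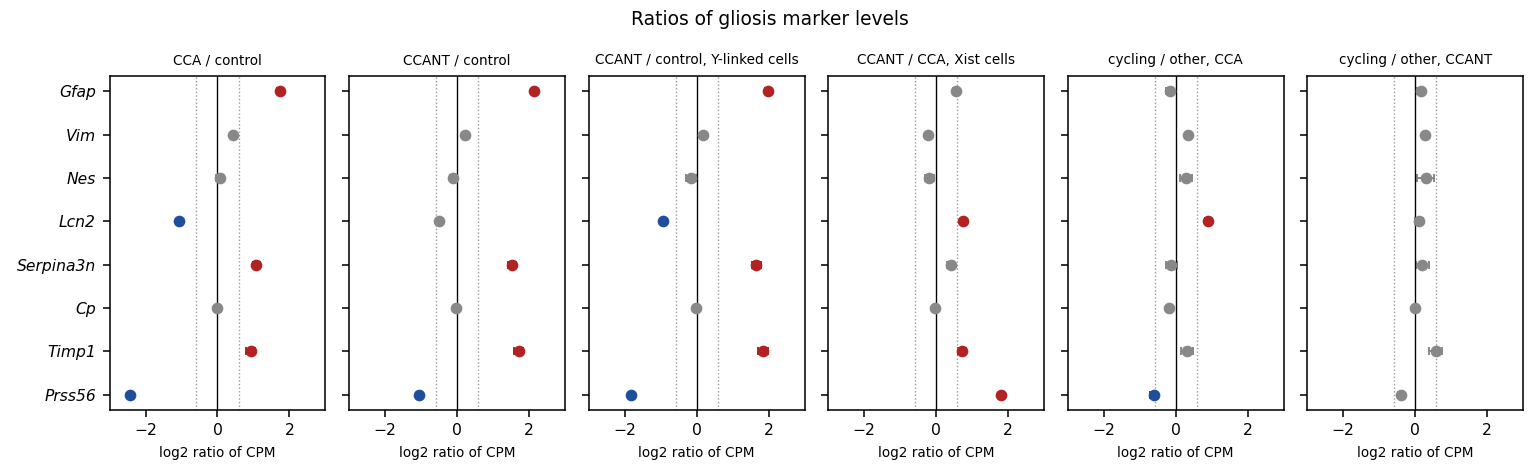
Points are log2 ratios of CPM for the 8 genes in 6 comparisons, with exact 95% counting intervals as bars, mostly narrower than the points; dotted lines mark 1.5-fold, red points are higher and blue points lower past it, and grey points are not past it. *Gfap*, *Serpina3n* and *Timp1* are red in each comparison with the control, and *Prss56* is blue there.

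The share of cells with a UMI was compared at a common depth of 8000 UMIs, drawn at random from each cell and reached by 3722 control, 3787 CCA and 3225 CCANT cells. *Gfap* was detected in 8.01% (7.15 to 8.93) of control, 19.3% (18.0 to 20.5) of CCA and 28.3% (26.8 to 29.9) of CCANT cells, and unthinned in 15.9%, 28.8% and 42.5%. *Serpina3n* was detected in 3.44%, 10.1% and 13.8%, and *Timp1* in 3.55%, 7.42% and 14.1%. So most kept cells of every library had no *Gfap*, *Serpina3n* or *Timp1* UMI at this depth. *Vim* (97.1%, 98.1% and 97.6%) and *Cp* (99.97%, 99.7% and 99.8%) were detected in nearly every cell, and *Nes* in 12.7%, 13.2% and 13.6%. *Prss56* was detected in 49.6% of control, 16.5% of CCA and 28.4% of CCANT cells. Unthinned, the shares in that order were 7.27%, 16.1% and 23.7% for *Serpina3n*, 7.19%, 15.5% and 26.9% for *Timp1*, 31.4%, 25.5% and 27.6% for *Nes*, and 69.2%, 26.0% and 39.8% for *Prss56*. For *Vim* and *Cp* they were above 99% in every library.

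UMIs found in cells that should lack a gene set a floor for such shares. Free RNA in the droplets and doublets, which were not called here, were not told apart as their source. In the amacrine-like cluster, neurons that should lack these genes, thinned to 3000 UMIs, *Gfap* was detected in 0.25% of control, 1.77% of CCA and 2.72% of CCANT cells, against 4.14%, 9.11% and 12.3% of the MG-like cells of clusters 1 to 3. *Timp1* was detected in 0.5%, 0.662% and 0.817% against 1.38%, 2.9% and 5.01%, and *Serpina3n* in 0.5%, 1.32% and 0.272% against 1.91%, 3.71% and 5.25%. *Prss56* was detected in 8.75%, 1.99% and 4.09% against 35.1%, 9.76% and 17.1%, *Nes* in 0.5%, 0.883% and 0.817% against 5.48%, 5.14% and 5.03%. *Vim* was detected in 11.8%, 11.7% and 8.99% against 78.5%, 83% and 77.8%, and *Cp* in 15.8%, 13.9% and 18.8% against 98%, 98.3% and 97.3%. The closest to the floor was *Lcn2*, with 2%, 1.55% and 1.36% against 4.61%, 2.93% and 5.36%. Median depths before thinning were 21887, 25784 and 23184 UMIs for the amacrine-like and 23305, 20371.5 and 19233 UMIs for the MG-like cells.

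*Lcn2* differed from the other 7 genes in how much of its RNA lay in a few cells. At 8000 UMIs it was detected in 9.65% (8.72 to 10.6) of control, 8.13% (7.28 to 9.05) of CCA and 16.6% (15.3 to 17.9) of CCANT cells, so the share was highest in CCANT although the level was highest in the control. Unthinned, the shares were 19.9%, 14.0% and 26.5%. The 1% of cells with most *Lcn2* held 74.9% of its UMIs in the control against 59.4% in CCA and 42.4% in CCANT, and the highest single cells had 1005, 429 and 316 UMIs before thinning. Its variance over mean was 84, 31.3 and 21.8, where that of *Vim* was 2.34, 3.96 and 2.69. Without the 1% of cells with most *Lcn2* of each library, its level was 31.3, 25.9 and 54.2 CPM. The CCANT over control log2 ratio then turned from -0.51 to 0.79, that within Y-linked cells from -0.93 to 0.69, and that of CCA over control moved from -1.06 to -0.27. The direction of *Lcn2* between CCANT and control thus rested on 38 control cells and 33 CCANT cells.

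By the share of UMIs in the top 1% of cells, the other inducible genes were concentrated to a lesser degree, and most in the control. The control also had the smallest share of cells positive for them, which bears on this measure. The top 1% of cells held 67.7%, 32.4% and 27.1% of *Serpina3n* UMIs in the control, CCA and CCANT libraries, 61.7%, 39.5% and 28.3% of *Timp1* UMIs and 44.6%, 25.8% and 19.6% of *Gfap* UMIs. *Prss56* went the other way, at 13%, 29.4% and 20.6%. *Vim* and *Cp* were the least concentrated by this share, with at most 4.87% of their UMIs in those cells. The variance over mean ordered the libraries otherwise for *Gfap*, at 4.64, 7.22 and 5.5 in the control, CCA and CCANT, and for *Prss56*, at 15.1, 9.12 and 14.5. It was 7.49, 3.58 and 3.34 for *Serpina3n*, 4.66, 3.97 and 3.3 for *Timp1* and 4.26, 5.24 and 4.02 for *Cp*. Among cells with a *Gfap* UMI the mean was 2.14 UMIs in the control, 3.1 in CCA and 2.73 in CCANT, and at least 5 UMIs were held by 0.887%, 3.91% and 4.43% of all cells. For *Prss56* the mean in positive cells was 7.32, 3.81 and 6.08 UMIs, so both the share of positive cells and the level within them were lowest in CCA.

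**Figure D3:**
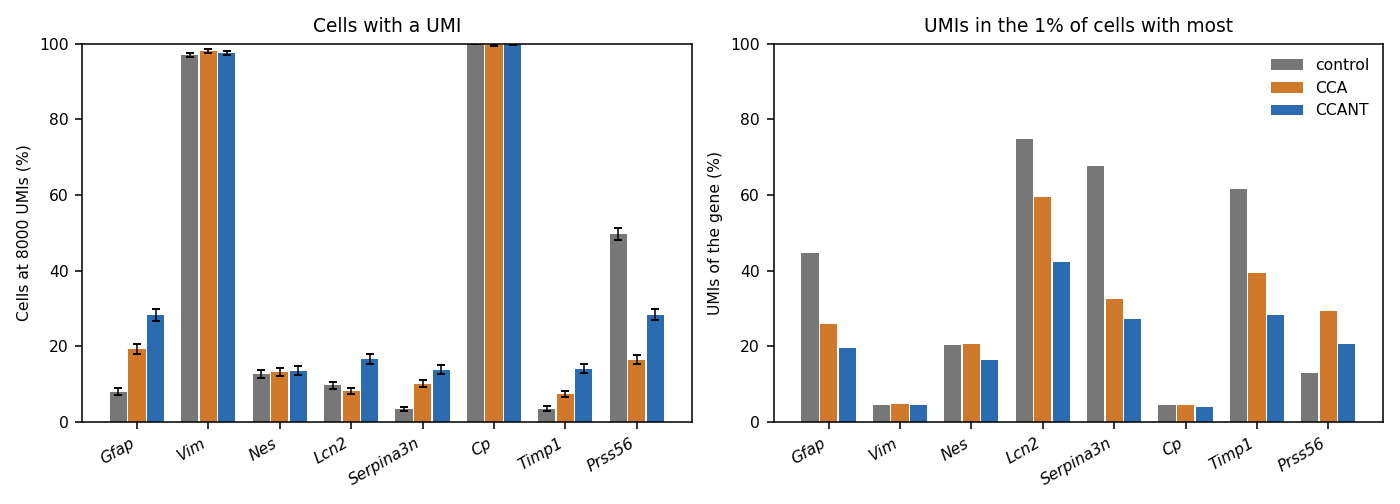
The left panel gives the share of cells with a UMI of each gene at 8000 UMIs per cell, with exact 95% binomial intervals, and the right panel the share of the gene's UMIs in the 1% of cells with most, for the control, CCA and CCANT libraries. *Lcn2* has the tallest bars on the right, at 74.9%, 59.4% and 42.4%, beside shares of positive cells between 8.13% and 16.6%.

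*Gfap*, *Lcn2*, *Serpina3n* and *Timp1* were found together in the same cells more often than the product of their shares gives. *Gfap* and *Serpina3n* UMIs were both present in 1.56% of control, 5.02% of CCA and 7.72% of CCANT cells, where the products were 0.275%, 1.94% and 3.9%. The observed over expected ratio of *Serpina3n* with *Timp1* was 7.27 in the control, 2.72 in CCA and 2.05 in CCANT, so it was smaller where both genes were more common. At least 3 of the 4 genes were detected in 67 control cells (1.8%, 1.4 to 2.28), 120 CCA cells (3.17%, 2.63 to 3.78) and 222 CCANT cells (6.88%, 6.03 to 7.81). If the 4 genes had been independent, 2.7, 16.8 and 61.3 such cells would be expected. All 4 were detected in 16, 19 and 43 cells.

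As a description over cells of 1 library, which share mice, depth and free RNA, Pearson r of log(1 + UMIs) at 8000 UMIs was highest for *Lcn2* with *Serpina3n* in the control (0.49, 3722 cells) and for *Gfap* with *Serpina3n* in CCA (0.34, 3787 cells). In CCANT (3225 cells) it was highest for *Lcn2* with *Serpina3n* (0.30) and *Gfap* with *Lcn2* (0.29). *Vim* had r between 0.18 and 0.20 with *Gfap* in the 3 libraries. *Cp*, detected in nearly every cell, had r of 0.29, 0.22 and 0.21 with *Lcn2* and 0.23, 0.19 and 0.16 with *Gfap* in the control, CCA and CCANT. With *Serpina3n* it was 0.22, 0.12 and 0.09, and with *Timp1* 0.18, 0.08 and 0.04. *Serpina3n* with *Timp1* was at 0.35, 0.19 and 0.20. *Prss56* was close to unrelated to *Gfap*, at 0.08, 0.03 and -0.02, and both were detected in 7.63% of CCANT cells against a product of 8.04%. *Nes* had r of at most 0.17 with any other member.

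**Figure D4:**
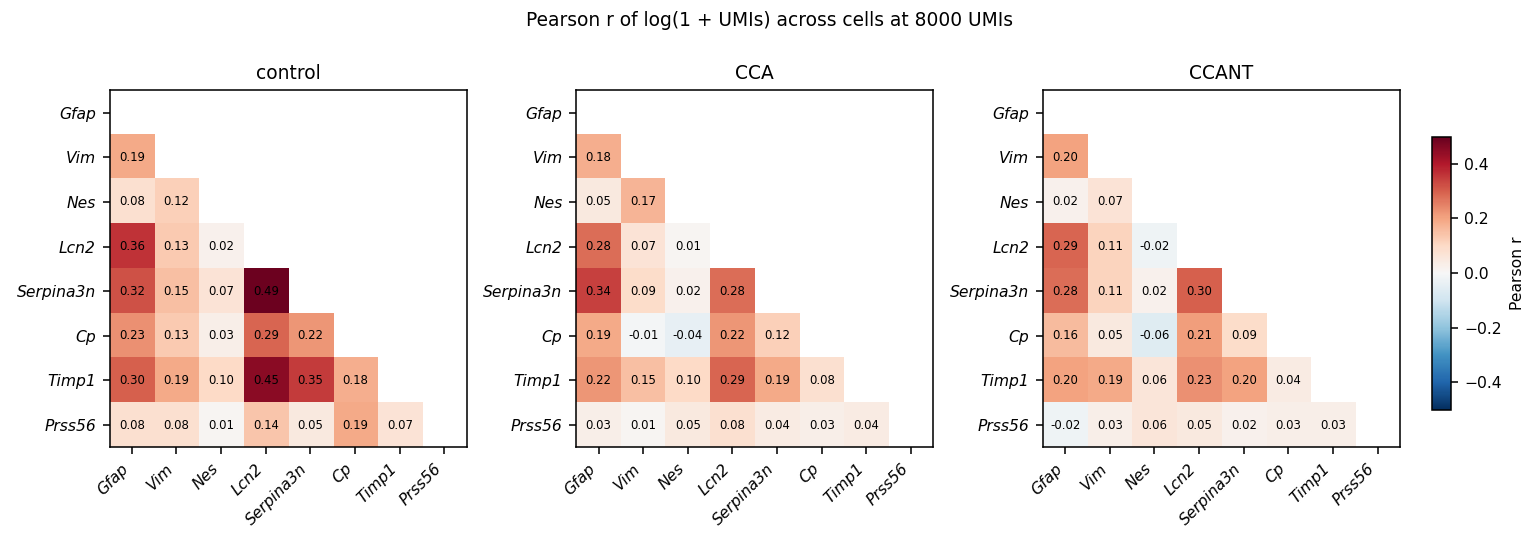
Each square is Pearson r of log(1 + UMIs) between a pair of the 8 genes across cells thinned to 8000 UMIs, in the control (3722 cells), CCA (3787 cells) and CCANT (3225 cells) libraries. The darkest square is *Lcn2* with *Serpina3n* in the control (0.49), and the row of *Prss56* is pale in CCA and CCANT, between -0.02 and 0.08.

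Cells of all types that passed quality control were clustered without the 8 genes, and the members' levels were read in the clusters of kept cells. Cluster 1, led by *Spc25*, *Etnppl*, *Abca8a* and *Abca8b*, held 1678 control, 1381 CCA and 909 CCANT cells and had the lowest *Gfap* of clusters 1, 2, 3 and 8, at 4.21, 21.9 and 22.6 CPM. *Gfap* was thus higher in the treated libraries within this cluster as well, in 2.77%, 7.71% and 12.1% of its cells. Cluster 2, led by *Junb*, *Fosb*, *Fos*, *Ccn1* and *Timp3* among others, held 88, 1377 and 1441 cells with *Gfap* at 41.0, 89.9 and 93.1 CPM. Cluster 3, led by *Cxcl10*, *Iigp1*, *Gbp10*, *Cd274* and *GFP*, held 1909, 429 and 82 cells with *Gfap* at 32.9, 80.8 and 77.0 CPM. *Prss56* was lower in CCA and CCANT than in the control in each of the 3 clusters, at 294.9, 88.5 and 155.1 CPM in cluster 1, 1313, 76.4 and 223.5 CPM in cluster 2, and 506.4, 113.7 and 182.8 CPM in cluster 3. The makeup of the libraries by cluster therefore differed, and the values within a cluster keep the order of control below CCA for *Gfap* and above it for *Prss56*.

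A smaller cluster, number 8, held a larger share of the RNA of each of the 8 genes than of cells in each library. All 9 MG markers were raised in it, with a median log2 level of 1.84 over the median of all clusters, where clusters 1, 2 and 3 had 2.59, 2.36 and 2.50, so it met the same marker rule. Like those of clusters 2 and 3, its leading genes (*Mecom*, *Fbln1*, *Ttr*, *Crhbp*, *Optc*, *C3*, *Slc6a13*, *Arc* and *Steap4*) hold no MG marker. *Steap4* is also one of the pan-reactive genes counted below, and the 8 members were left out of the leading genes. This cluster is given apart from clusters 1 to 3, a choice made after its values were seen. It made up 1.12% of control, 5.94% of CCA and 10.8% of CCANT cells. *Gfap* was at 202.9, 348.4 and 279.7 CPM in it and *Lcn2* at 2340, 417.4 and 346.5 CPM, and it held 11.1%, 28.7% and 33% of all *Gfap* UMIs and 22.4%, 41.8% and 45.3% of all *Lcn2* UMIs. *Serpina3n* was at 88.9, 105.2 and 95.02 CPM and *Timp1* at 161.8, 47.7 and 72.0 CPM, with 9.2%, 25.7% and 32.5% of *Serpina3n* and 22.7%, 17.8% and 29.6% of *Timp1* UMIs. Its shares of *Vim* (2.01%, 8.05% and 16%) and *Cp* (2.59%, 11.4% and 17.5%) were also above its share of cells but lay nearer to it. So did those of *Nes* (2.99%, 9.14% and 14.6%) and *Prss56* (4.44%, 8.21% and 20.9%). *Prss56* was at 1594, 110 and 373 CPM in this cluster. Larger clusters held more of some of this RNA. Cluster 3 had 75.7% of the *Gfap* and 70.9% of the *Lcn2* UMIs of the control, with 50.8% of its cells. Cluster 2 had 39.1% and 39.6% of the *Gfap* UMIs of CCA and CCANT, with 35.4% and 44% of their cells. Of the cells with at least 3 of *Gfap*, *Lcn2*, *Serpina3n* and *Timp1*, 16.4%, 41.7% and 43.2% lay in this cluster, against 1.13%, 6.1% and 11% of all cells at that depth. Cluster 5, which carried rod as well as MG markers, held 29, 193 and 408 cells, with *Gfap* at 39.3, 114.7 and 139.8 CPM and *Lcn2* at 451.2, 120.1 and 166.6 CPM.

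Outside MG, *Gfap* was by far highest in a cluster of 190 astrocyte-like cells, at 3042 CPM against 47.0 CPM in the MG-like clusters 1 to 3 (all cells passing quality control, 3 libraries together). *Serpina3n* (708.9 CPM), *Lcn2* (960.4) and *Vim* (2032) were also high there, and *Prss56* was low (19.2 CPM against 260.3 in clusters 1 to 3). By library, *Lcn2* in these cells was at 6947 CPM in the 15 control cells, 149.6 in the 33 CCA cells and 170.4 in the 142 CCANT cells. None of the 190 was among the kept cells. Of kept cells, 2 control, 12 CCA and 8 CCANT cells held a UMI of *Pax2*, which marks retinal astrocytes, and these held 0.0917%, 0.301% and 0.363% of the *Gfap* UMIs. All 6 astrocyte markers had UMIs in each library, several of them genes that MG also express, and their sum was 1047, 968.8 and 977.3 CPM in the control, CCA and CCANT libraries. The markers among the leading genes of the astrocyte-like cluster did not follow that sum. In the same order, *Pdgfra* was at 1.25, 1.14 and 2.12 CPM, *S100b* at 5.51, 6.04 and 7.33 CPM and *Pax2* at 0.021, 0.228 and 0.113 CPM. The part of astrocyte RNA in the *Gfap* differences was not tested. *Nes* was highest in the pericyte-like (156.5 CPM) and endothelium-like (129.7 CPM) clusters, and *Vim* reached 946 CPM in the horizontal-like cluster.

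**Figure D5:**
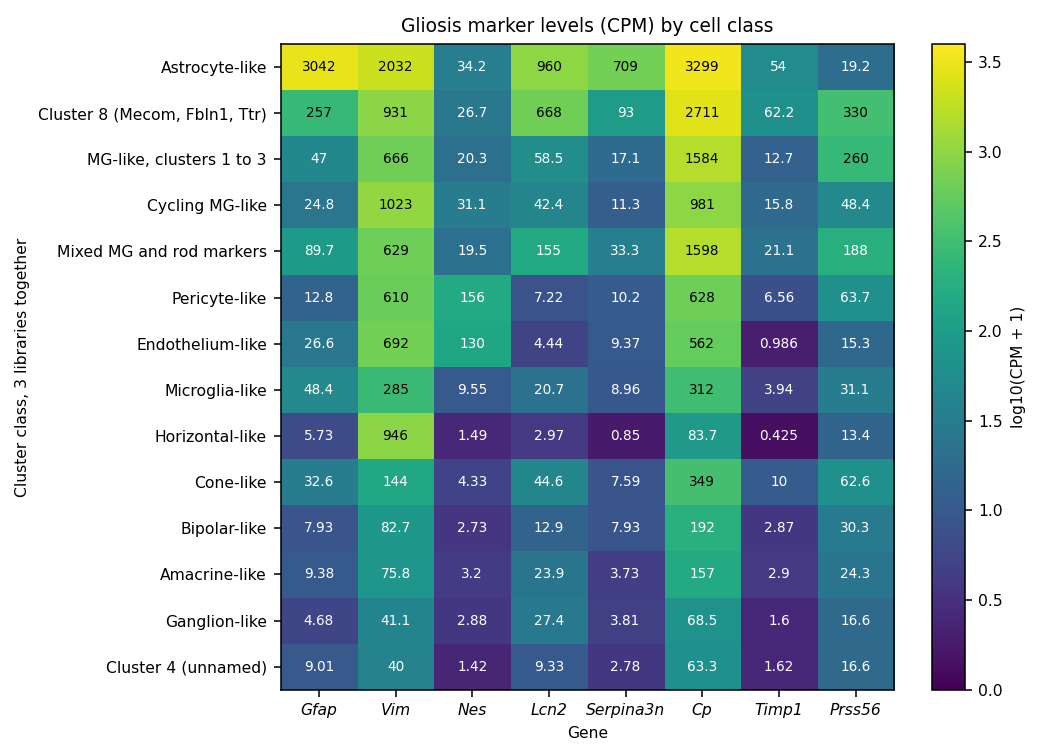
Each cell gives the CPM of a gene in a cluster class, 3 libraries together, over all cells that passed quality control, with colour on a log10(CPM + 1) scale. *Gfap* peaks in the astrocyte-like row (3042 CPM) and then in cluster 8 (257.3 CPM), while *Prss56* is at 330.1 CPM in cluster 8, 260.3 CPM in clusters 1 to 3 and 24.3 CPM in the amacrine-like row.

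Cells with at least 1 UMI of *Mki67* or *Top2a*, here called cycling, made up 42 of 3758 control (1.12%, 0.807 to 1.51), 752 of 3890 CCA (19.3%, 18.1 to 20.6) and 299 of 3278 CCANT cells (9.12%, 8.16 to 10.2). In CCA, cycling cells had more *Lcn2* than other cells, at 98.0 against 52.9 CPM (log2 ratio 0.89, 0.81 to 0.97), and less *Prss56*, at 59.0 against 90.2 CPM (-0.61, -0.71 to -0.52). These were 1 higher and 1 lower of 8, where 8.32% of 16235 genes were higher and 1.56% lower. Both calls depended on the setting. Without the 1% of cells with most *Lcn2* its ratio was 0.44 (0.30 to 0.58), short of 1.5-fold, and with the mean over cells that of *Prss56* was -0.51. *Gfap* was at 69.2 against 77.7 CPM (-0.17), *Serpina3n* at 23.9 against 26.0 CPM (-0.12), and *Vim* at 982.1 against 774.5 CPM (0.34). In CCANT none of the 8 was past 1.5-fold (7.11% of 15745 genes higher, 1.74% lower). *Timp1* came closest there, at 41.0 against 27.7 CPM (0.57, 0.39 to 0.75), and *Vim* was at 828 against 683.9 CPM (0.28).

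The share of *Gfap*-positive cells at 8000 UMIs was 19.6% (16.8 to 22.7) of cycling and 19.2% (17.8 to 20.6) of other CCA cells, and 31.4% (26.2 to 37.0) of cycling and 28% (26.4 to 29.7) of other CCANT cells, so the intervals overlap in both libraries. *Lcn2* was detected in 10.2% (8.07 to 12.6) of cycling and 7.65% (6.73 to 8.65) of other CCA cells. The picture changed with a stricter definition. Cells with at least 2 UMIs of *Mki67* and *Top2a* together, 321 in CCA and 112 in CCANT, had less *Gfap* than cells with none, at a log2 ratio of -1.16 (-1.34 to -0.99) in CCA and -1.10 (-1.35 to -0.85) in CCANT. The ratios of *Prss56* were then -1.15 in CCA and -1.01 in CCANT, those of *Serpina3n* -0.56 and -1.05, and that of *Lcn2* in CCA 0.53, no longer past 1.5-fold. By this definition 2 of the 8 genes were lower past 1.5-fold in CCA, where 8.39% of all genes tested were lower, and 3 in CCANT, where 5.82% were. None of the 8 was higher, where 2401 of 15967 genes tested were in CCA and 2094 of 15627 (13.4%) in CCANT. In cluster 11, led by *Top2a*, *Mki67* and *Cenpf*, *Gfap* was at 14.3 CPM in 247 CCA and 37.2 CPM in 67 CCANT cells, below the 75.9 and 101.2 CPM of all kept cells. *Vim* was above the level of all kept cells in that cluster, at 1298 and 978.4 CPM. Median depth was 22172.5 UMIs in cycling and 20394 UMIs in other CCA cells, and 22837 and 20558 UMIs in CCANT.

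Other genes known as markers of reactive glia were counted by list, in CCA over control and CCANT over control. Of 6 pan-reactive genes above the minimum, 3 and 2 were higher and 0 lower, with *Hspb1*, a small heat shock protein, at log2 ratios of 1.35 and 2.16 and *Steap4*, a metalloreductase, at 0.69 and 1.43. *Cxcl10*, a chemokine, was at 1.41 and -0.44, and its sign turned within Y-linked cells, where CCANT over control was 0.40 (0.28 to 0.53). The median of the list was 0.49 and 0.30, beside 0.07 and 0.03 over all genes. Of 11 genes of the A1 list, first drawn up for astrocytes after inflammation, 1 was higher in each comparison, and 4 and 6 were lower (median -0.19 and -0.61). The lower genes included *Iigp1* (-2.13 and -3.24), *Gbp2* (-1.18 and -2.44) and *Psmb8* (-0.93 and -1.45), which are also interferon-induced genes. *Ggta1*, a galactosyltransferase, was higher (2.34 and 3.55). Of 9 genes of the A2 list, first drawn up for astrocytes after ischaemia, 3 and 4 were higher and 0 lower (median 0.55 in both). Of these *Emp1*, a membrane protein, was at 0.335, 1.37 and 3.56 CPM in the control, CCA and CCANT libraries, and *Cd109*, a surface glycoprotein, at 0.22, 0.937 and 6.64 CPM.

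Of 8 other genes of the intermediate filament network, 3 and 4 were higher and 2 were lower in each comparison (median 0.21 and 0.41). *Lmna*, the gene of lamin A, was at 26.5, 60.2 and 64.2 CPM in the control, CCA and CCANT libraries, and *Krt18*, a keratin, at 3.50, 7.13 and 11.5 CPM. *Prph*, peripherin, was at 0.126, 2.89 and 1.06 CPM, while the neurofilament genes *Nefl* (5.97, 3.48 and 1.91 CPM) and *Nefm* (2.64, 1.32 and 0.833 CPM) were lower. Among genes of signals upstream of gliosis, 3 of 10 and 3 of 9 were higher and 0 lower. *Socs3*, a feedback inhibitor of STAT3 signalling, was at 37.7, 139.4 and 136.6 CPM, *Lif*, a cytokine of the gp130 family, at 4.30, 8.30 and 6.72 CPM, and *Edn2*, an endothelin, at 0.451, 1.38 and 1.29 CPM. The medians of that list, 0.01 and 0.16, were close to those of all genes, and *Stat3* itself was at 0.20 and 0.16. None of 8 genes of MG homeostasis was past 1.5-fold (median -0.20 and -0.35), with *Glul*, glutamine synthetase, at -0.22 and -0.37 and *Apoe* at 0.28 and 0.53. Of the 14 immediate-early and dissociation genes 12 and 10 were higher and 0 lower (median 1.00 and 0.87), among them *Nr4a1* (2.42 and 2.67), *Atf3* (2.09 and 1.40) and *Junb* (1.17 and 1.22). The shares of all genes past 1.5-fold are those given above for each comparison. Within Y-linked cells, CCANT over control, the list counts were 2 of 6 pan-reactive genes higher, 1 higher and 4 lower of 11 A1 genes, 4 of 8 A2 genes higher, 3 higher and 2 lower of 7 filament genes, 2 of 9 upstream genes higher and 10 of 14 immediate-early genes higher. *Lif* was at 0.40 (0.12 to 0.68) there, no longer past 1.5-fold, and of the 8 homeostasis genes 1 was lower, *Dbi*, at -0.60 against -0.53 over all CCANT and control cells.

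The genes whose counts went most with each member over cells were named from 8787 genes detected in at least 10% of CCA and CCANT cells, by the lower of the CCA and CCANT values of Pearson r. *Lcn2* and *Timp1* did not reach that share in both libraries. For *Gfap* these were *A2m*, a protease inhibitor (0.30 and 0.34), *Serpina3n* (0.34 and 0.28), the metallothioneins *Mt1* (0.24 and 0.27) and *Mt2* (0.23 and 0.26), and *S100a6* (0.23 and 0.26). *A2m*, *Mt1* and *S100a6* were also among the 5 of *Serpina3n*, with *Gfap* first. For *Vim* they were *S100a6* (0.35 and 0.40), *Eef1a1*, *Tpt1*, *S100a10* and *Myl6*, and for *Cp* they were *Cebpd* (0.33 and 0.29), *Necab2*, *Gna14*, *Aldh1a1* and *Zfp804b*. *Prss56* went with *Adamts19*, a secreted metalloproteinase, at r of 0.44 in CCA, 0.64 in CCANT and 0.73 in the control, followed by *Gm36169*, *Rdh10*, *Minar2* and *Foxp2*. *Nes* had no partner above 0.18 (*Inpp5f*, *Anxa2*, *Nupr1*, *S100a6* and *Ccnd1*).

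In the control library the members also differed with the GFP RNA of the vector. Cells with 0, 1 and at least 2 *GFP* UMIs at 8000 UMIs (2703, 692 and 327 cells) had *Gfap* at 15.9, 36.8 and 49.6 CPM and *Lcn2* at 93.7, 206.3 and 267.1 CPM. *Vim* was at 578.7, 656.5 and 702.6 CPM in them, *Cp* at 1577, 1772 and 2079 CPM, *Prss56* at 430.1, 452 and 586.8 CPM and *Serpina3n* at 8.80, 18.8 and 24.3 CPM. *Timp1* was highest with 1 *GFP* UMI (6.33, 16.3 and 13.8 CPM), and *Nes*, at 20.8, 25.2 and 26.1 CPM, hardly differed between 1 and at least 2. *GFP*, which is transcribed from a *GFAP* promoter, was at 50.7 CPM in control cells against 3.39 in CCA and 2.68 in CCANT cells, in which the GFP vector was 1 part of the mixture to 9 parts of the other.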

How the data were processed

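The authors sorted tdTomato+ retinal cells, made 10x Genomics 3′ v3.1 libraries and counted UMIs with Cell Ranger 6.1.1 on mm10, per the submitters' processing notes, with tdTomato and GFP added and intronic reads included. They deposited a matrix of raw UMI counts per library and a joint table of UMI counts (26167 genes, 10926 cells) after their filters on features, UMIs, mitochondrial share, tdTomato, doublets and non-MG clusters. The joint table is not of MG alone, since the paper's final clusters include rods and rod-MG. Of its cells, 630 lay in cluster 5, of mixed markers, and 50 in cluster 4, in which no MG marker was raised. All 10926 cells were found in the library matrices. Counts were taken from these, since a control cell kept a median of 93.1% of its UMIs in the joint table, a CCA cell 99.9% and a CCANT cell 99.9%. Kept cells held 95458516, 83266870 and 70825549 UMIs in the control, CCA and CCANT libraries, and 8, 4 and 2 kept barcodes were shared between control and CCA, control and CCANT, and CCA and CCANT.

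Levels are summed UMIs per 1000000 UMIs (CPM). Ratios carry exact conditional intervals and shares exact Clopper-Pearson intervals at 95%. Groups came from the labels, with 1 library each, so no p-value was computed. A cell was of Y-linked RNA with 3 or more UMIs over 4 Y-linked genes and no more than 1 of *Xist*, and of *Xist* RNA in the reverse case. For clusters, the barcodes that met the study's limits (2000 features or more, 100000 UMIs and 15% mitochondrial UMIs or less) were taken whether or not tdTomato was detected, with the Leiden algorithm (scanpy 1.11.5, leidenalg 0.10.2, 2000 variable genes, 20 components, 20 neighbours, resolution 0.5), leaving out the 8 members, sex-linked genes and transgenes. A cluster took a name from its markers (median log2 level of at least 1.5 over the median of clusters, at least 3 markers raised). No doublet caller was run, and a cluster of mixed markers is given apart. Promoters and motifs came from RefSeq windows and coordinates from GENCODE. The ratio and thinning steps were tested on simulated data.

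The 8 members and the lists were chosen with earlier results of these data known. The named genes are the members, up to 4 of each list with the greatest log2 ratios for each of CCA and CCANT over control, the 5 genes most correlated with each member that is detected in at least 10% of CCA and CCANT cells, and *Mki67*, *Top2a*, *Cdkn1b*, *GFP* and tdTomato. The naming of clusters, the comparison inside CCANT, the split by *GFP*, joint detection of 4 members, shares within clusters and levels without the top cells were added after the data were seen. Alternatives covered scaling, source of counts, choice of cells, thresholds, thinning depth and clustering resolution.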

Additional observations from a re-analysis of the deposited data

How the results depend on the processing

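No paired analysis was possible because each group was 1 library and the labels number no replicates. Summed over both directions, the counts of members past 1.5-fold between groups stayed within 1.5 times under the other scaling, the joint table, MG clusters only (clusters 1, 2, 3, 8 and 11), the mean over cells, leaving out the top 1% of cells or cycling cells, dropping the tdTomato requirement and no minimum of UMIs. By direction, *Lcn2* crossed the threshold. It became lower past 1.5-fold in CCANT over control in MG clusters only (-0.68) and without the tdTomato requirement (-0.87). Without the top 1% of cells it no longer passed as lower in CCA over control (-0.27) and passed as higher in CCANT over control (0.79). In CCANT over CCA it passed as higher with the other scaling (0.59), without the tdTomato requirement (0.59), without cycling cells (0.78) and without the top 1% of cells (1.06). At 2-fold, 1 member was higher in CCANT over CCA, as were 0.874% of all genes tested, and 1 within *Xist* cells, as were 0.762%. For cycling against other CCA cells, 1 member was higher with the mean over cells (*Lcn2*, where 8.02% of all genes were, and the call of *Prss56* was lost), 1 was lower without the top 1% of cells of each gene (*Prss56*, 1.56%, and the call of *Lcn2* was lost), and 0 passed 2-fold (4.72% higher and 0.456% lower). For cycling against other CCANT cells, 1 was higher in MG clusters only (*Timp1*, 0.71, with 7.87% of all genes higher) and 1 without cells holding a *Pax2* or *Pdgfra* UMI, an alternative chosen after seeing the data (*Timp1*, 0.62, with 7.14% higher), and 3 were lower when cycling meant at least 2 UMIs (5.82% lower). In that setting the median of the 8 was -0.25 in CCANT and -0.22 in CCA. Without the top 1% of cells, *Lcn2* in Y-linked CCANT over control cells reversed to 0.69, since most of its control UMIs lay in those cells. Scaling by the median of ratios moved no log2 ratio by more than 0.07 and the joint table none by more than 0.05. Other settings moved them further. Leaving out the top 1% of cells moved 28 of 56 log2 ratios outside their main interval, by up to 1.62, and 1 more was counted as reversed. That was *Lcn2* within Y-linked cells, which was past 1.5-fold in the main setting (-0.93). *Lcn2* in CCANT over control also changed sign, from -0.51 to 0.79, but was short of 1.5-fold in the main setting. In CCA over control, *Serpina3n* went from 1.08 to 1.95, *Timp1* from 0.92 to 1.59 and *Gfap* from 1.73 to 2.06. Dropping the tdTomato requirement moved 20 of 40, by up to 0.4, and *Gfap* in CCA over control was then 1.48. Thinning to 5000 UMIs lowered the share of positive cells, to 5.82%, 14.9% and 21.0% for *Gfap* in the control, CCA and CCANT libraries. *Gfap* in the astrocyte-like cluster stayed at 3042 CPM at a resolution of 1.0. At 8000 UMIs most cells of every library had no UMI of *Gfap*, *Nes*, *Lcn2*, *Serpina3n* or *Timp1*, so their shares rest on few UMIs per cell.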
